A study of Homo sapiens with 6 samples.

Results

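The YAP and TEAD pathway was followed at 9 genes, out of 19970 that code for proteins on the autosomes and X: the target genes CCN1, ANKRD1, AMOTL2 and AJUBA, the coactivator genes YAP1 and WWTR1 (WWTR1 encodes TAZ), the transcription factor genes TEAD1 and TEAD4, and the kinase gene LATS2. Every region of the 6 peak lists that overlapped 1 of these genes, extended by 20 kb at both ends, was taken. This gave 715 of 998906 regions, over loci that summed to 1174.3 kb. The choice of loci rests on gene positions alone, but the genes were picked with earlier results of these data known. Coordinates are those of hg38 (GRCh38). The added 20 kb also reached other protein-coding genes (DDAH1 at CCN1, RPP30 at ANKRD1, HAUS4 and C14orf93 at AJUBA, TM4SF4 and COMMD2 at WWTR1, and TULP3 at TEAD4), so a region beside a gene is placed by position only.

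CUT&Tag, in which an antibody directs the Tn5 transposase to cut out the DNA around a protein or histone mark, was performed in MDA-MB-231 cells, a triple-negative breast cancer line. NONO, an RNA- and DNA-binding protein of paraspeckles, was mapped in NC cells (the negative control, with the genotype WT in the labels) and in NONO-KD cells (NONO knockdown). H3T11ph, the phosphorylated threonine 11 of histone H3, a mark ascribed to nuclear PKM2, and H3K27ac, the acetylated lysine of active promoters and enhancers, were each mapped in NC and PKM2-KD cells (PKM2 knockdown). All 6 libraries came from this cell line, and each group held 1 library. The study's methods describe siRNAs, whose control is named NC, and shRNAs, whose control is a scrambled sequence, without naming the reagent used for CUT&Tag. No expression was measured in these libraries, so the knockdowns could not be checked, and differences between NC and knockdown describe a pair of libraries with no replicate error.

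In the Hippo pathway, the kinases LATS1 and LATS2 phosphorylate YAP and TAZ and hold them in the cytoplasm. Unphosphorylated YAP and TAZ enter the nucleus, where they activate transcription through the TEAD proteins, which bind DNA at sites with the core GGAATG, often at enhancers that also hold AP-1 sites. Triple-negative breast cancer cells are known for high YAP and TAZ activity, and MDA-MB-231 carries an inactivating mutation of NF2, an upstream member of the pathway.

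The lists were not called alike. NONO NC had 89474 regions and H3K27ac NC 572970, and 94.6% and 79.3% of them had exactly the narrowest width found there (269 bp and 112 bp). The remaining 4 were NONO-KD with 44349 regions, H3T11ph NC with 42674, H3T11ph PKM2-KD with 36583 and H3K27ac PKM2-KD with 212856. Their share of narrowest regions was between 1.19% and 2.05%, and their region names carried a tag that NONO NC and H3K27ac NC lacked. Only the H3T11ph pair therefore had 1 form in both conditions. The height of a region below is the number of fragments stacked at its summit. Its fold is the deposited ratio of the summit pileup to the local background, with 1 added to both. In H3K27ac NC alone that pileup had been scaled, by 0.521, so folds of the H3K27ac lists are not comparable. The implied depth, NC before knockdown, was 3.34 and 2.84 fragments per kb (NONO), 3.35 and 3.42 (H3T11ph) and 7.46 and 7.48 (H3K27ac). The background height of the pileup was 0.372 and 0.311 fragments for the H3T11ph lists and 0.835 and 0.845 for the H3K27ac lists, so heights in fragments are set side by side for these, and not for NONO, where it was 0.899 and 0.278. Of the markers of the line, VIM, CD44 and CAV1 had summits of 53 to 232 H3K27ac fragments in NC and 119 to 298 in PKM2-KD within 1 kb of a gene end, against 8 to 22 and 12 to 16 for ESR1, PGR and ERBB2, the receptor genes that triple-negative cells lack. GATA3, a luminal factor gene, had 36 and 16.

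The promoters of these genes are shown where they hold a TEAD motif, since the regions described below lie on or beside them. RefSeq (GRCh38.p14) promoter sequences, from 250 bases before to 50 bases after a start site, were found for 6 of the 9 genes (ANKRD1, AMOTL2, AJUBA, YAP1, WWTR1 and LATS2), with 9 promoters between them. The core GGAATG, searched on both strands, occurred in 5 of these 9 promoters and in 12.2% of 22131 promoters of protein-coding genes. The 5 promoters are printed in the direction of the gene, with the motif (or CATTCC on the opposite strand) in capitals.
ANKRD1 promoter, chr10:90921038-90921337, minus strand: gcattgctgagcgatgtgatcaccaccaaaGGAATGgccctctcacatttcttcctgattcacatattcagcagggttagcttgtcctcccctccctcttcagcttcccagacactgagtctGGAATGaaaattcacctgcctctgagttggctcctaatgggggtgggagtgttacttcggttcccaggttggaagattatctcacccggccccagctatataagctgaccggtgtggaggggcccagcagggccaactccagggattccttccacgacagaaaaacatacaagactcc
AMOTL2 promoter, chr3:134374398-134374697, minus strand: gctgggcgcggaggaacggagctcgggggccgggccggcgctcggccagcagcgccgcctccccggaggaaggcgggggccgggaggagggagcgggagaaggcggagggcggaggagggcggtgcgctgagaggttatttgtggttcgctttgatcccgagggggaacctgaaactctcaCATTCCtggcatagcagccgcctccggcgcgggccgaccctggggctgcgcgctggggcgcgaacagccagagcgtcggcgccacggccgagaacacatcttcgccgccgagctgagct
AJUBA promoter, chr14:22976793-22977092, minus strand: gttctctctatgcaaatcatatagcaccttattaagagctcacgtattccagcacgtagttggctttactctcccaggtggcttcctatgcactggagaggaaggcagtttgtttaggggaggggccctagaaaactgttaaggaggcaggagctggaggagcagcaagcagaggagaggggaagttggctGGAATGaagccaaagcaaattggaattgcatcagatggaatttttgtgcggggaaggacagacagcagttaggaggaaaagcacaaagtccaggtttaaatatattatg
YAP1 promoter, chr11:102110197-102110496, plus strand: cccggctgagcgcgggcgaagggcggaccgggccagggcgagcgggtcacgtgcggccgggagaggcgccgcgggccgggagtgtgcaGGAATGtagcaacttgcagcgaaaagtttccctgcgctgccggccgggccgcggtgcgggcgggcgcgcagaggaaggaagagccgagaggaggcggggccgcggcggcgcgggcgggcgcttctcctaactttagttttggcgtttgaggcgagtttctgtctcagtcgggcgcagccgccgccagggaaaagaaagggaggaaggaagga
LATS2 promoter, chr13:21061537-21061836, minus strand: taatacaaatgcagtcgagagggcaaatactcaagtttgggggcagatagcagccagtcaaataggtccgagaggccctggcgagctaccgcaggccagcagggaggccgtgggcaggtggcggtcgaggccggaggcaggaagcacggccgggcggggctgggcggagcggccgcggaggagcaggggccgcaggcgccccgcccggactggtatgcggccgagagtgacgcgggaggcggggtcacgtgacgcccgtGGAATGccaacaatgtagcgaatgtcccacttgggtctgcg
ANKRD1 had the motif at 2 positions, with first bases at −220 and −128 from the start site, and 1.06% of all promoters held 2 or more. The single motifs began at −69 in AMOTL2 (opposite strand), −59 in AJUBA, −162 in YAP1 and 10 in LATS2. Positions are counted from the start site of the printed promoter. For AMOTL2 and AJUBA this start site lies inside the gene span. Their other promoters, at the gene ends (chr3:134375368-134375667 and chr14:22982502-22982801), held no TEAD motif. The AP-1 motif TGANTCA, the same on both strands, was found in the ANKRD1 promoter alone among the 9, and in 6.15% of all promoters. A match describes letters only, and no binding of TEAD or AP-1 was measured here.

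H3K27ac was found over the printed promoters of ANKRD1, AMOTL2, AJUBA, YAP1 and LATS2 in both NC and PKM2-KD, where 39.3% of all promoters were overlapped in NC and 43.3% in PKM2-KD. Of the promoters at the gene ends, that of AMOTL2 was overlapped in both conditions and that of AJUBA in PKM2-KD only. H3T11ph lay over the ANKRD1 promoter in both conditions, over the YAP1 promoter in PKM2-KD, and over 1 of the 2 WWTR1 promoters, chr3:149657976-149658275, in both conditions. Of all promoters, 7.83% were overlapped by H3T11ph in NC and 8.35% in PKM2-KD. NONO lay over the LATS2 promoter and over the other WWTR1 promoter, chr3:149703224-149703523, in NC, and over none of the 9 in NONO-KD. Of all promoters, 9.02% were overlapped by NONO in NC and 2.7% in NONO-KD. The WWTR1 promoter with NONO was the only 1 of the 9 without H3K27ac in either condition.

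All 9 genes had at least 1 NONO region in NC and 7 had 1 in NONO-KD, where 90.4% and 69.8% of all genes did. H3T11ph regions were present at all 9 genes in NC and in PKM2-KD, against 73.2% and 69.6% of all genes. H3K27ac regions were present at all 9 in both conditions, against 99.3% and 96.2%. Regions were also counted per 10 kb of locus, which divides by length, though genes were not matched for length. By this measure H3K27ac exceeded the median of all genes (2.37 in NC and 0.943 in PKM2-KD) at all 9 genes in both lists. H3T11ph exceeded its medians (0.170 and 0.152) at 8 genes in each list, YAP1 being below in NC and TEAD4 in PKM2-KD. NONO exceeded its median (0.397 in NC and 0.156 in NONO-KD) at 5 and 3 genes.

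**Figure D1:**
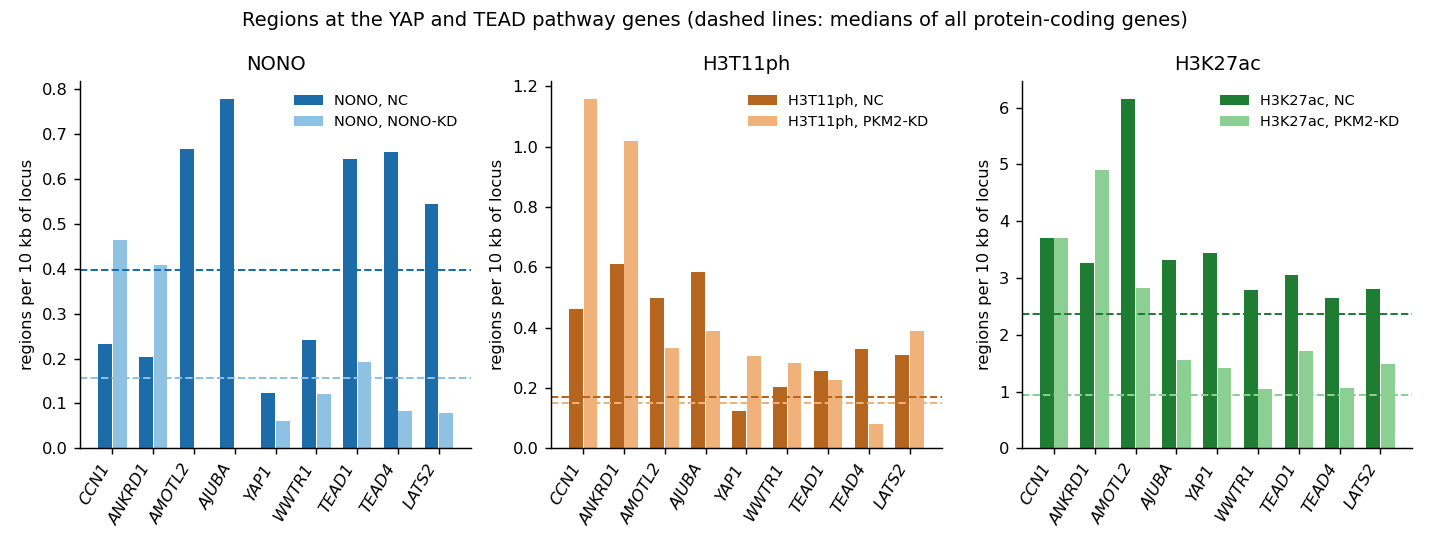
Bars give the number of regions per 10 kb of each gene with 20 kb on both sides, in the NC (dark) and knockdown (light) library of NONO, H3T11ph and H3K27ac, and dashed lines give the median of all protein-coding genes in the same list. All 18 H3K27ac bars stand above the median of their list, while NONO in NC stands above it at AMOTL2, AJUBA, TEAD1, TEAD4 and LATS2 only.

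CCN1 (chr1:85580761-85583950) encodes CYR61, a secreted matrix protein and a standard readout of YAP activity. NONO had 1 region at its locus in NC and 2 in NONO-KD, H3T11ph 2 in NC and 5 in PKM2-KD, and H3K27ac 16 in NC and 16 in PKM2-KD. In each H3K27ac list 1 broad region covered most of the gene, chr1:85580070-85583493 in NC and chr1:85580071-85583610 in PKM2-KD, of 3424 and 3540 bp. Its limits hardly moved, while its summit stood at 69 fragments in NC and 180 in PKM2-KD. The ratio was 2.61, at percentile 98.6 of the ratios of all genes, and CCN1 was the only member of the 9 with a ratio of at least 2, which 5.47% of all genes had.

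NONO and H3T11ph lay inside or beside that broad CCN1 region. The NONO region of NC, chr1:85583005-85583273 with 58 fragments, was in the part of the gene away from the lower coordinate, and the nearest NONO-KD region, chr1:85582642-85582768, did not overlap it. H3T11ph in NC marked the lower end of the gene, chr1:85580779-85581027, with 59 fragments. In PKM2-KD the nearest H3T11ph region ended before it, at chr1:85580460-85580661, and had 85 fragments. No H3T11ph region of CCN1 was shared between the conditions, yet both regions of NC and all 5 of PKM2-KD lay on H3K27ac of the same condition.

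ANKRD1 (chr10:90912096-90921087) encodes a nuclear ankyrin repeat protein and is among the most responsive YAP and TEAD targets. NONO had 1 region here in NC and 2 in NONO-KD, H3T11ph had 3 in NC and 5 in PKM2-KD, and H3K27ac had 16 in NC and 24 in PKM2-KD. It was the only member with more H3K27ac regions in the knockdown, which 5.10% of all genes had. The tallest H3K27ac summit of the locus was not at the gene but 9.16 kb upstream of its start site in NC and 9.15 kb in PKM2-KD. This upstream region, chr10:90929874-90931834 in NC and chr10:90929956-90930832 in PKM2-KD, reached 254 and 274 fragments. Its deposited folds, 92.9 and 149.1, are not comparable, since the NC pileup had been scaled by 0.521 before the fold was taken.

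All 3 H3T11ph regions of ANKRD1 in NC overlapped a region of PKM2-KD. One of them lay within the promoter with the pair of TEAD motifs printed above, chr10:90921111-90921242, and had 41 fragments in NC and 56 in PKM2-KD. The others lay in the upstream H3K27ac region, at chr10:90930482-90930693 with 31 fragments in NC and 90 in PKM2-KD, and at chr10:90931213-90931391 with 61 and 40. The NONO region of NC, chr10:90931619-90931887, was at the outer border of the same upstream H3K27ac region and had 23 fragments. H3K27ac over the promoter itself had a summit of 90 fragments in NC and 138 in PKM2-KD.

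AMOTL2 (chr3:134355345-134375417), an angiomotin-like protein that binds YAP and is also its target, had the largest share of its locus covered by H3K27ac among the 9 genes in both conditions. The locus had 4 NONO regions in NC and 0 in NONO-KD. H3T11ph had 3 in NC and 2 in PKM2-KD, and H3K27ac had 37 in NC and 17 in PKM2-KD. H3K27ac regions covered 25.7% of the locus in NC and 38.6% in PKM2-KD, so fewer regions held more bases. In PKM2-KD 1 region of 7718 bp, chr3:134368036-134375753, ran from within the gene across the printed promoter, while the widest in NC had 2642 bp. The tallest summit of NC, 117 fragments, lay within this stretch, where PKM2-KD had 164. The tallest of PKM2-KD, 172 fragments, lay in another region, chr3:134356719-134358767, where NC had 113. One H3T11ph region was shared, chr3:134364360-134364557 within the gene, with 90 fragments in NC and 49 in PKM2-KD.

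AJUBA (chr14:22971177-22982551), a LIM-domain protein that restrains the LATS kinases, showed the same form of H3K27ac with fewer fragments. NONO regions numbered 4 in NC and 0 in NONO-KD, H3T11ph regions 3 in NC and 2 in PKM2-KD, and H3K27ac regions 17 in NC and 8 in PKM2-KD. H3K27ac covered 16.6% of the locus in NC and 17.3% in PKM2-KD. In NC a pair of regions covered the part of the gene towards its start site, chr14:22975836-22978727 and chr14:22978876-22982135, and in PKM2-KD 1 region of 6811 bp did, chr14:22976170-22982980. The tallest summit had 68 fragments in NC and 87 in PKM2-KD. The tallest NONO region of NC, chr14:22991081-22991349 with 215 fragments, was 8.63 kb upstream of the start site and overlapped no region of another list.

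**Figure D2:**
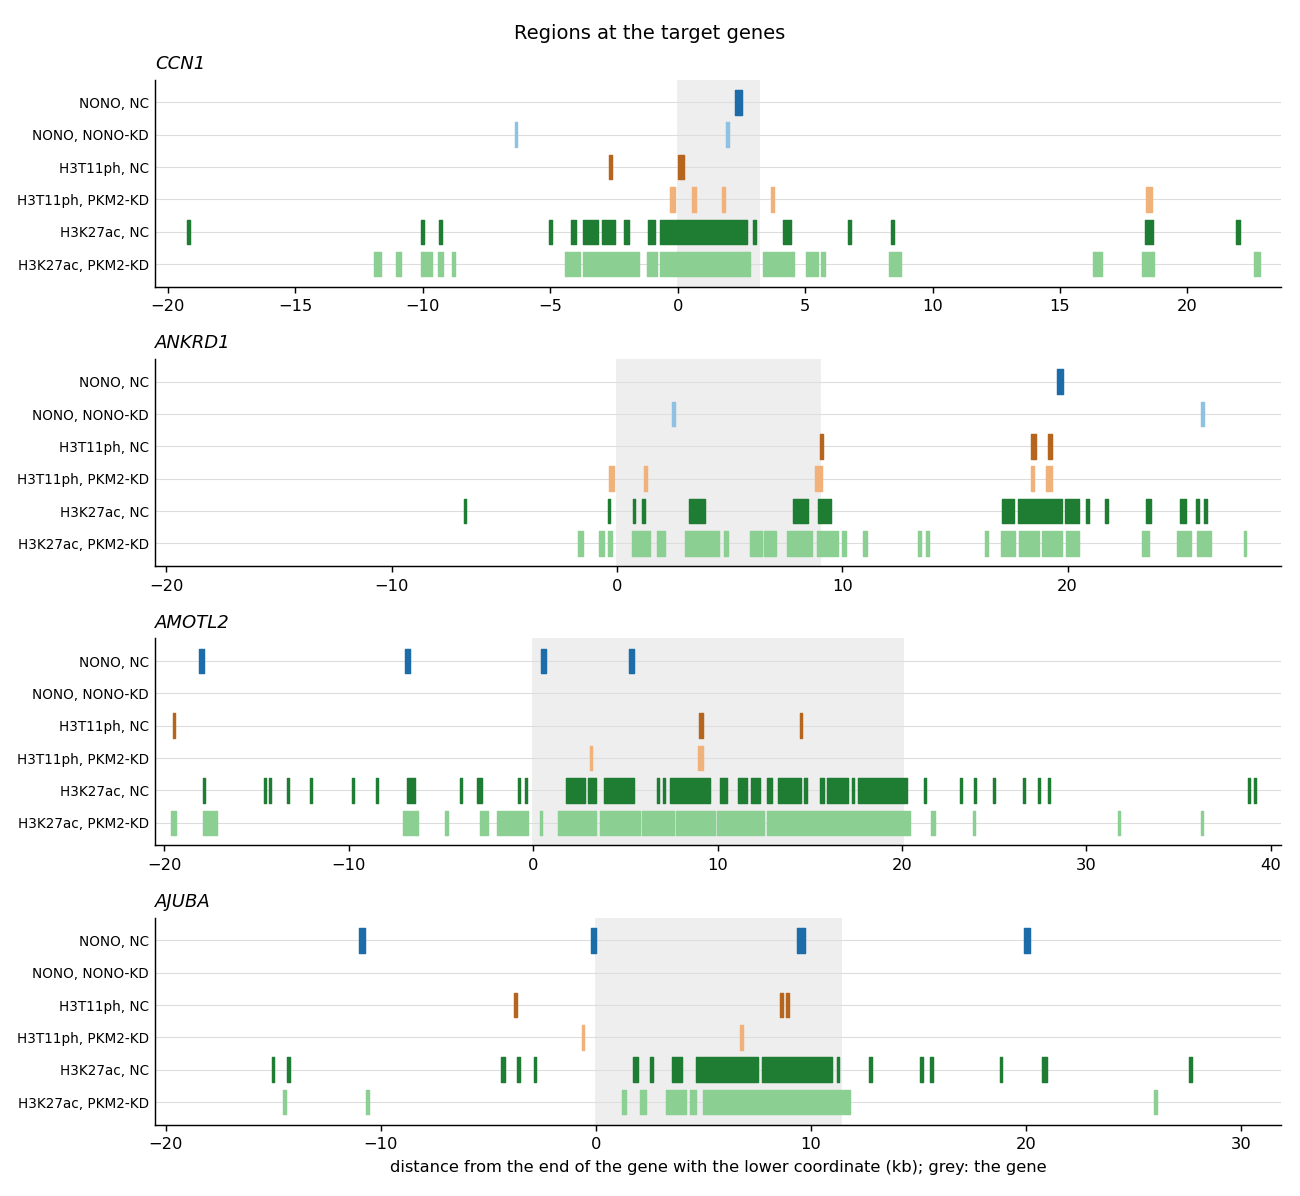
Each panel is a target gene with 20 kb on both sides, and bars mark the regions of the 6 lists against the distance in kb from the end of the gene with the lower coordinate (grey marks the gene, and narrow regions are widened by their outline). Broad H3K27ac regions lie over most of CCN1 and AMOTL2 and over the part of AJUBA with the higher coordinates in both conditions, and at ANKRD1 it forms a second group near 19 kb on this axis (9 to 11 kb upstream of the start site) that also holds H3T11ph in both conditions.

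YAP1 (chr11:102110447-102233424) encodes the coactivator YAP. The locus had 2 NONO regions in NC and 1 in NONO-KD, H3T11ph had 2 in NC and 5 in PKM2-KD, and H3K27ac had 56 in NC and 23 in PKM2-KD. With 0.123 NONO regions per 10 kb in NC it stood at percentile 14.2 of all genes, the lowest of the 9. H3K27ac at its start site, under the printed promoter, was split in NC, with 45 fragments in the taller of the neighbouring regions. In PKM2-KD it was 1 region of 2480 bp, chr11:102109849-102112328, with 127 fragments.

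H3T11ph was called at the YAP1 start site in PKM2-KD only, at chr11:102110241-102110363, with 66 fragments and a fold of 51.1. The H3T11ph regions of NC lay 11.5 kb and 115.6 kb into the gene. A further H3K27ac group lay near 68.0 kb, where the NC region chr11:102176105-102179855 had the tallest summit of the locus in that list, 77 fragments. In PKM2-KD this stretch was called as separate regions, of which the taller, chr11:102177770-102178582, had 76 fragments. The ratio of the tallest H3K27ac summits of YAP1 was 1.65, but these summits lay at different places. The tallest lay 68.0 kb into the gene in NC and 1.69 kb into it in PKM2-KD, where NC had a summit of 43 fragments at 1.74 kb.

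WWTR1 (chr3:149517235-149724788), the gene of the coactivator TAZ, had the tallest H3K27ac summits of all 9 in PKM2-KD and was second to ANKRD1 in NC. NONO regions numbered 6 in NC and 3 in NONO-KD, H3T11ph regions 5 in NC and 7 in PKM2-KD, and H3K27ac regions 69 and 26. The tallest region, chr3:149575295-149576653 in NC and chr3:149575293-149576612 in PKM2-KD, lay inside the gene, 148.4 kb from its end with the higher coordinate, and had 226 and 327 fragments. A neighbour 142.9 kb from that end, chr3:149581608-149582228, had 153 fragments in NC and 170 in PKM2-KD.

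H3T11ph at WWTR1 was partly shared between the conditions. Of 5 regions in NC, 3 overlapped a region of PKM2-KD, and all 5 lay on H3K27ac of NC. The first of the shared places lay within the tallest H3K27ac region, chr3:149575612-149575755, with 36 fragments in NC and 71 in PKM2-KD. The next, chr3:149646324-149646620, had 50 and 98 fragments. The last, chr3:149658100-149658210, lay over the inner WWTR1 promoter and had 68 and 47 fragments, so the order of the conditions was not the same at the 3 places. None of the 6 NONO regions of NC overlapped a region of any other list.

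TEAD1 (chr11:12674421-12944737) encodes a TEAD family factor that is broadly expressed, and its locus, with 20 NONO regions in NC and 6 in NONO-KD, held more NONO regions than any other member. Its density of 0.645 NONO regions per 10 kb in NC was at percentile 70.2 of all genes. H3T11ph had 8 regions in NC and 7 in PKM2-KD, and H3K27ac had 95 and 53. The tallest NONO region of NC at a place with another list, chr11:12889226-12889494, had 160 fragments and lay on H3K27ac of PKM2-KD. The only NONO region of NC at the 9 genes that overlapped a NONO-KD region was here, chr11:12900625-12900893 against chr11:12900591-12900700.

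That TEAD1 place, inside the gene, was the only 1 at the 9 genes where a NONO region of NC was overlapped by 4 other lists: NONO-KD, H3T11ph NC and both H3K27ac lists. Its H3T11ph region in NC, chr11:12900591-12900825, had 88 fragments, and H3T11ph of PKM2-KD was not called there. The tallest H3K27ac region, chr11:12692198-12694361 in NC and chr11:12692206-12694438 in PKM2-KD, had 126 and 174 fragments. It held the shared H3T11ph region of TEAD1, chr11:12693735-12693932, with 57 fragments in NC and 64 in PKM2-KD.

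TEAD4 (chr12:2959397-3040676), another gene of the TEAD factors, had the weakest H3K27ac of the 9, by tallest summit and by covered share. The locus had 8 NONO regions in NC and 1 in NONO-KD, H3T11ph had 4 in NC and 1 in PKM2-KD, and H3K27ac had 32 in NC and 13 in PKM2-KD. The tallest H3K27ac summit had 30 fragments in NC and 21 in PKM2-KD, beside medians of all genes of 31 and 32. It was the only member whose summit was lower in PKM2-KD. Of the 4 H3T11ph regions of NC 1 lay on H3K27ac, and the H3T11ph region of PKM2-KD lay on none.

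LATS2 (chr13:20973036-21061586) encodes the kinase that inactivates YAP and TAZ, and its transcription is itself raised by them. NONO had 7 regions in NC and 1 in NONO-KD, H3T11ph 4 in NC and 5 in PKM2-KD, and H3K27ac 36 in NC and 19 in PKM2-KD. The NONO region over the printed promoter, chr13:21061811-21062079, had 101 fragments in NC and lay on H3K27ac of both conditions, and no NONO-KD region lay there. The tallest H3K27ac region was 46.5 kb into the gene, chr13:21014930-21015449, with 49 fragments in NC. The overlapping region of PKM2-KD, chr13:21014798-21015442, had 58. H3T11ph of LATS2 was on H3K27ac at 1 of 4 regions in NC and 1 of 5 in PKM2-KD.

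**Figure D3:**
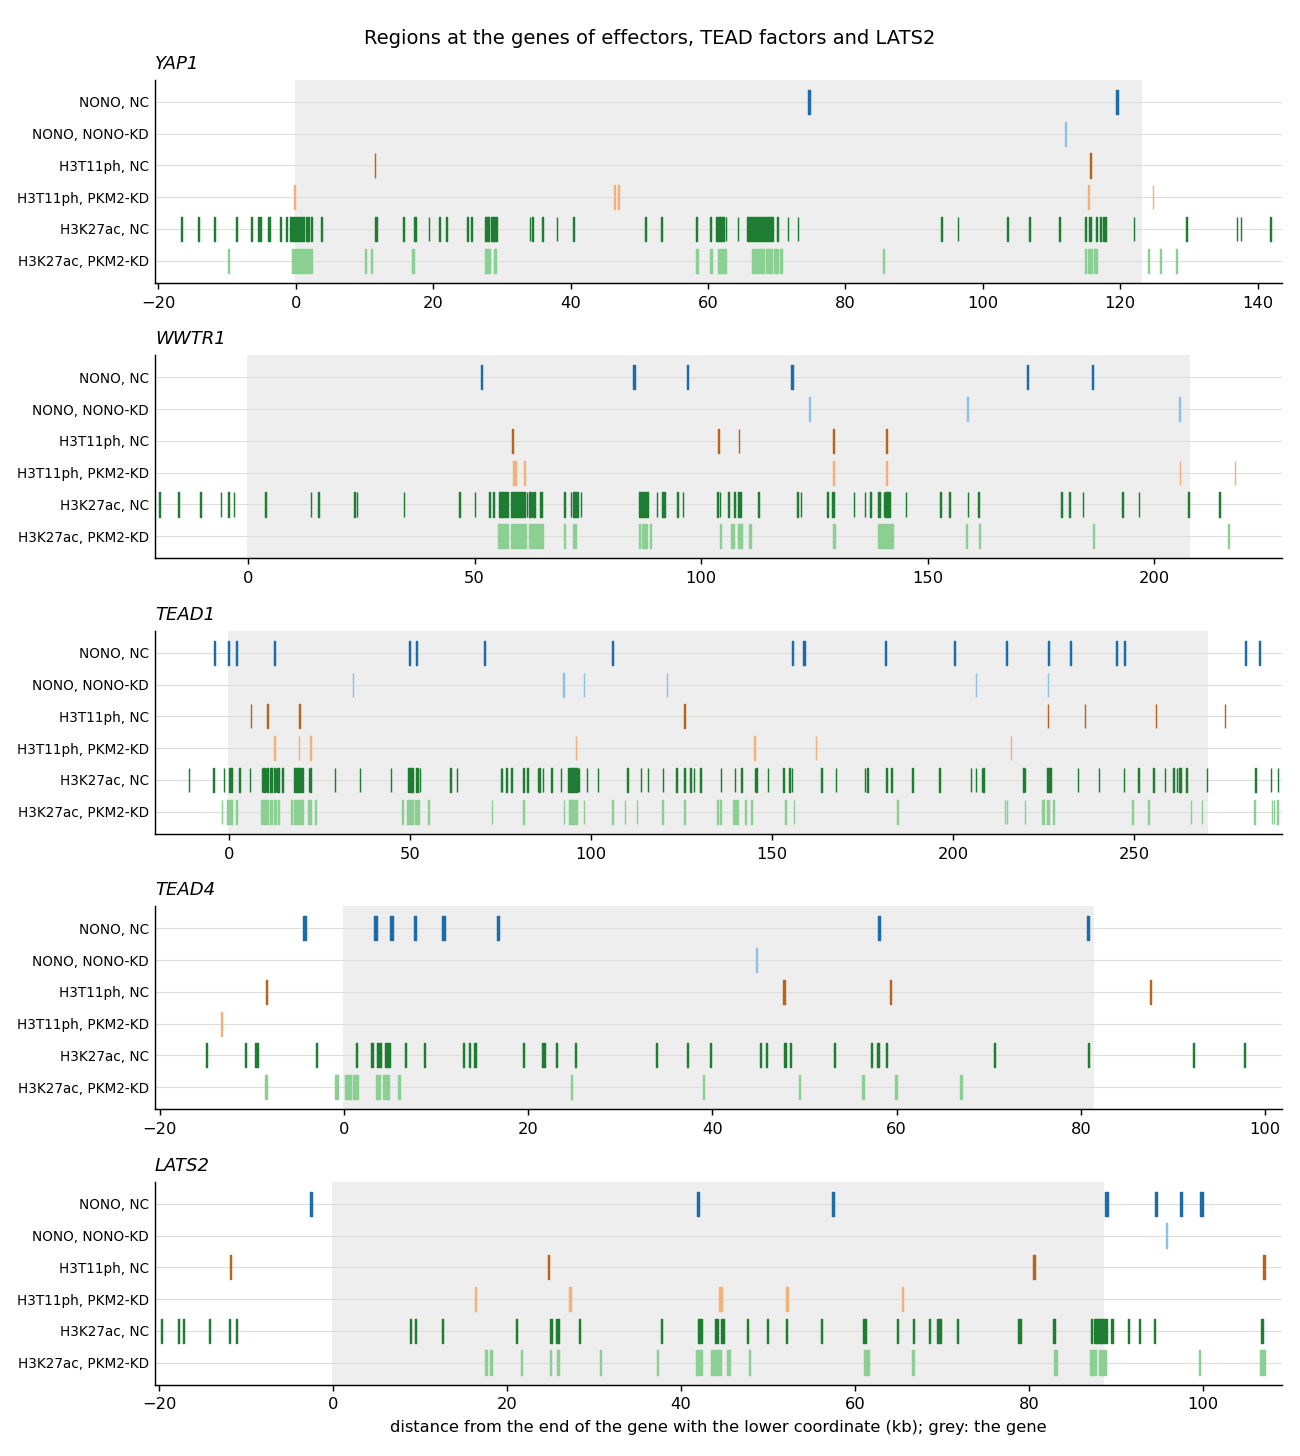
The same map for YAP1, WWTR1, TEAD1, TEAD4 and LATS2, with distance in kb from the end of the gene with the lower coordinate, grey for the gene and narrow regions widened by their outline. H3K27ac forms groups that recur in both conditions at YAP1, WWTR1 and TEAD1, and NONO regions of NC (53 at all 9 genes) mostly have no NONO-KD region at the same place.

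The NC and knockdown lists were then compared over the 9 loci together, to ask whether the targets of each antibody were fewer after knockdown there. For NONO, 53 regions in NC stood against 16 in NONO-KD, or 30.2% (95% interval 16.1% to 53.6%), where the whole lists gave 49.6%. The intervals cover counting error only, since there were no replicates. The whole lists also hold regions away from genes. Summed over the loci of all genes, where a region near several genes counts more than once, NONO had 89296 in NC and 35227 in NONO-KD. Covered bases were 14363 and 1896, or 13.2% of NC, against 23.7% over the whole lists, but every NONO NC region here had at least 269 bp and NONO-KD regions could be as narrow as 98 bp. When the NONO NC list was cut to the length of the NONO-KD list by strength, 31 regions stood against 16, or 51.6% (26.4% to 97.3%). The whole lists then gave 100.0%, since their lengths were set equal. The whole-list value thus lay inside the interval with the full lists and above it with equal lengths. Covered bases at equal lengths were 22.5% of NC, against 46.9% over the whole lists. Among genes with 5 or more regions in the pair of lists, all 4 members tested (WWTR1, TEAD1, TEAD4 and LATS2) had at most 50% of their NC count in NONO-KD, as did 68.5% of all such genes, and 0 had at least 2 times as many, against 2.4% of all such genes.

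H3T11ph regions at the 9 loci numbered 34 in NC and 39 in PKM2-KD, or 114.7% (70.6% to 187.3%), against 85.7% over the whole lists. The interval includes both 100.0% and the ratio of the whole lists, so a difference from either was not detectable with these counts. Summed over the loci of all genes, H3T11ph had 38017 in NC and 34047 in PKM2-KD. Covered bases gave 5117 and 5964, or 116.6%, against 72.5% over the whole lists. The direction was not the same in all genes: H3T11ph regions were more in PKM2-KD at CCN1, ANKRD1, YAP1, WWTR1 and LATS2 and fewer at AMOTL2, AJUBA, TEAD1 and TEAD4. Over all genes, 31.4% had more and 39.8% fewer. Several of these differences were small, as at LATS2 (4 and 5), AMOTL2 (3 and 2), AJUBA (3 and 2) and TEAD1 (8 and 7). Among the 9, TEAD4 had at most 50% of its NC count, and CCN1 and YAP1 had at least 2 times as many. Of the 5546 genes with 5 or more regions in the pair of lists, 24.7% and 16.9% did.

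H3K27ac regions numbered 374 in NC and 199 in PKM2-KD, or 53.2% (44.6% to 63.4%), against 37.1% over the whole lists. Summed over the loci of all genes, which leaves out regions away from genes, the counts were 484267 in NC and 211189 in PKM2-KD. The gap from that ratio was smaller than the gap from the whole lists. Of the 9, 5 genes (AMOTL2, AJUBA, YAP1, WWTR1 and TEAD4) had at most 50% of their NC count. So did 63.6% of all genes with 5 or more regions in the pair of lists. None of the 9 had at least 2 times its NC count, against 0.344% of such genes. This count depends on how the lists were called. With lists of equal length the count was 186 in NC and 199 in PKM2-KD, or 107.0% (87.2% to 131.4%), against 100.0% over the whole lists, and without regions under 2 times the narrowest width it was 95 and 117, or 123.2% (93.1% to 163.2%), against 115.2%. Both whole-list values lie inside the intervals of the 9 loci. Covered bases gave 102742 in NC and 114388 in PKM2-KD, or 111.3%, against 69.6% over the whole lists. That gap was much smaller under the alternatives, with 144.7% against 137.1% for lists of equal length, 147.0% against 136.1% for wide regions and 141.8% against 130.2% for regions with −log10 q of at least 5.

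Because the implied depth of both H3K27ac libraries was nearly equal, the heights of summits in fragments were compared as well. The lists were not called alike, however, and the treatment of duplicates, on which heights depend, is not given for either. A difference in calling therefore cannot be told apart from a difference in height. The tallest H3K27ac summit of the locus was higher in PKM2-KD at 8 of the 9 genes, where 46.3% of all genes had a higher one. At YAP1 and AMOTL2 the tallest summits of the lists lay at different places. The ratio of PKM2-KD to NC was 2.61 at CCN1, 1.65 at YAP1, 1.47 at AMOTL2, 1.45 at WWTR1, 1.38 at TEAD1, 1.28 at AJUBA, 1.08 at ANKRD1 and 0.700 at TEAD4, with LATS2 between AJUBA and ANKRD1 (49 and 58 fragments), and with a median of 0.968 over all genes. Covered bases were more in PKM2-KD at 5 of the 9 (CCN1, ANKRD1, AMOTL2, AJUBA and TEAD1), where 31.0% of all genes had more. At the 102 H3K27ac regions of PKM2-KD that overlapped a region of NC, 62 (60.8%) had the taller summit in PKM2-KD, against 45.5% of such places in the whole lists. This share was uneven, with 8 of 9 places at CCN1 and 8 of 11 at AMOTL2, but 10 of 20 at TEAD1, 5 of 10 at LATS2 and 1 of 3 at TEAD4, where the median ratios of PKM2-KD to NC were 1.04, 1.00 and 0.700. With 1 library per condition, library and condition cannot be told apart.

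**Figure D4:**
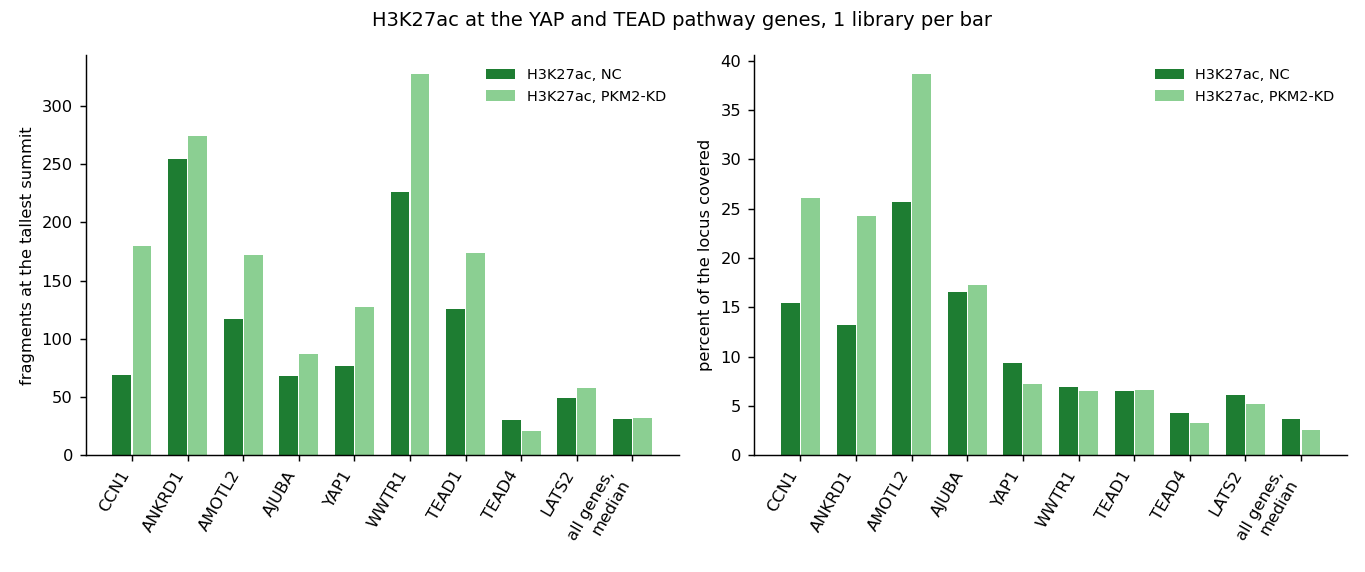
Left, fragments at the tallest H3K27ac summit of each locus, and right, the percent of the locus covered by H3K27ac regions, in the NC (dark) and PKM2-KD (light) library, with the median of all genes at the right end. Summits are taller in PKM2-KD at every gene except TEAD4, and coverage is higher in PKM2-KD at CCN1, ANKRD1, AMOTL2, AJUBA and, by a small margin (6.50% to 6.63%), TEAD1.

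The lists were also compared by place, to ask whether the same sites were called again after knockdown and whether NONO, H3T11ph and H3K27ac lay at the same sites. Of the NONO regions of NC at the 9 loci, 1 of 53 (1.89%, Wilson 95% interval 0.334% to 9.94%) overlapped a NONO-KD region, against 2.01% over the whole list. Of the H3T11ph regions of NC, 8 of 34 (23.5%, 12.4% to 40%) overlapped a PKM2-KD region, against 5.75%. Of the H3K27ac regions of NC, 124 of 374 (33.2%, 28.6% to 38.1%) did, against 13.3%. For both histone marks the whole-list share lay below the interval of these loci, and for NONO it lay inside. The intervals take regions as independent, although regions of 1 locus are grouped. H3K27ac covered more of these loci than of most genes (median percentile 93.4 in NC and 83.1 in PKM2-KD). The whole lists were not matched for this coverage.

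H3T11ph at these genes lay mostly on H3K27ac. In NC 22 of 34 H3T11ph regions (64.7%, 47.9% to 78.5%) overlapped H3K27ac, against 19.7% of the whole list, and in PKM2-KD 25 of 39 (64.1%, 48.4% to 77.3%) did, against 24.2%. All 8 H3T11ph regions of NC that were called again in PKM2-KD lay on H3K27ac in both conditions, while 14 of the other 26 lay on H3K27ac of NC. These 8 places were 3 at ANKRD1, 3 at WWTR1, 1 at AMOTL2 and 1 at TEAD1, and 5 of them had more H3T11ph fragments in PKM2-KD.

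NONO seldom met H3T11ph. In NC 1 of 53 NONO regions (1.89%, 0.334% to 9.94%), the TEAD1 region described above, overlapped H3T11ph, against 2.95% of the whole list. On H3K27ac of NC lay 17 of 53 (32.1%, 21.1% to 45.5%), against 16.8% of the whole list. In NONO-KD 4 of 16 regions (25.0%, 10.2% to 49.5%) lay on H3K27ac of NC, against 11.7%, so a difference from the NC share could not be seen with these counts.

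**Figure D5:**
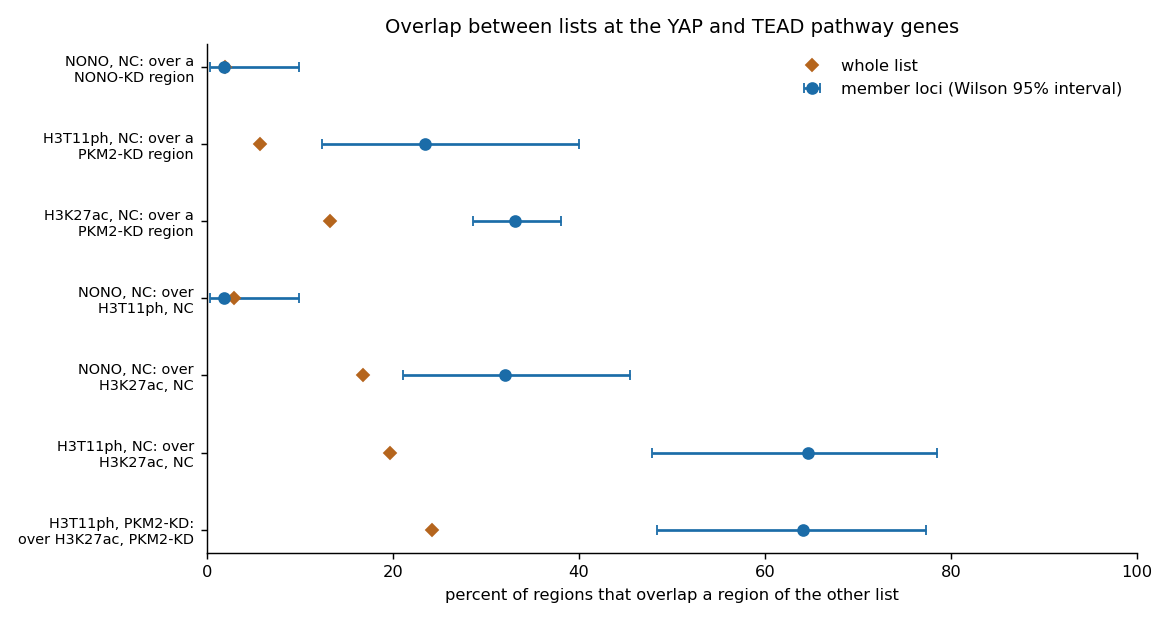
Points give the percent of regions at the 9 loci that overlap a region of a second list, with Wilson 95% intervals for counting error, and diamonds give the same percent over the whole list. The member loci lie above the whole list for H3T11ph and H3K27ac called again in PKM2-KD, for NONO on H3K27ac and for H3T11ph on H3K27ac, and at the whole-list value for the comparisons of NONO with NONO-KD and with H3T11ph.

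The wider pathway was described from lists chosen with earlier results known. At 18 further targets of YAP and TAZ, among them CCN2, AXL and F3, H3T11ph regions numbered 54 in NC and 80 in PKM2-KD. They were more in PKM2-KD at 13 genes and fewer at 3, where 31.4% of all genes had more and 39.8% fewer. CCN2 was among the 3 with fewer (4 and 2), while AXL (3 and 4) and F3 (0 and 2) had more. H3K27ac regions of the 18 targets numbered 1015 and 626 and were fewer in PKM2-KD at all 18, as at 92.4% of all genes. The tallest summit was higher in PKM2-KD at 13 of the 18 targets, where 46.3% of all genes had a higher one. Their NONO regions numbered 132 in NC and 52 in NONO-KD, with fewer in NONO-KD at 14 of the 18, as at 73.4% of all genes. H3K27ac per 10 kb in NC was highest at FOXF2, a forkhead factor (5.43), and CRIM1, a membrane protein (5.27), and lowest at RBMS3 (1.62) and IGFBP3 (1.63).

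The 12 core kinases and adaptors, such as STK3, SAV1 and NF2, had 48 H3T11ph regions in NC and 33 in PKM2-KD, with more in PKM2-KD at 3 of these genes and fewer at 5, beside 31.4% and 39.8% of all genes. Their H3K27ac regions numbered 688 and 378, with a taller summit in PKM2-KD at 6 of the 12, near the 46.3% of all genes. Their NONO regions numbered 84 in NC and 32 in NONO-KD, with fewer in NONO-KD at 10 of the 12, beside 73.4% of all genes. H3K27ac per 10 kb in NC was highest at WWC1 (4.21) and NF2 (3.78) and lowest at AMOT (1.13) and LATS1 (1.40). Among the 5 other TEAD and VGLL factor genes, with 12 H3T11ph regions in NC and 15 in PKM2-KD, it was highest at TEAD3 (6.14) and VGLL4 (2.82) and lowest at VGLL1 (0.929) and TEAD2 (1.46).

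The gene elsewhere in the genome whose regions per 10 kb had ranks closest to those of a member over the 6 lists was MYC for CCN1, RBPJL for ANKRD1, ITGA7 for AJUBA, PCDHGC3 for YAP1, FNDC3B for WWTR1, DCDC2B for TEAD1, DDX31 for TEAD4 and CLIP2 for LATS2. The mean difference in percentile rank over these pairs was between 2.26 (ANKRD1 and RBPJL) and 4.49 (YAP1 and PCDHGC3). These pairs describe likeness of region density over 6 libraries and nothing else.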

How the data were processed

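Per the labels, Illumina sequencing was used. The authors deposited 1 narrowPeak list per library, with the fold (a ratio of the summit to the local background), −log10 p and −log10 q of each region. The submitters' processing notes name the build hg38, FastQC 0.11.9, cutadapt 1.18, SAMtools 1.3.1, MACS2 2.1.1.20160309 and DESeq2. The aligner, treatment of duplicates and any control are not given in the sources used here. The smallest deposited −log10 q was 1.3023 to 1.3178, near a q of 0.05. Regions on chromosomes 1 to 22 and X were used.

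Gene positions came from RefSeq (GRCh38.p14, the same build), whose table gives spans without strand or exons. For distances in kb, a start site is the gene end on the strand given by the RefSeq promoter table. Motif positions are counted from the start site of each promoter, which can lie inside the gene. Regions were assigned to a gene by overlap with its span and 20 kb on both sides. Shares of all genes by tallest H3K27ac summit are over the 19192 genes with a summit in both lists. The members, and all gene lists, were chosen with earlier results of these data known. All members are described, with the strongest regions of each list. Genes of the wider lists were named by the highest and lowest 2 values of H3K27ac per 10 kb. For AMOTL2 the gene with the closest ranks is not reported here. A few further regions were named after their values were seen. Fragments at a summit are whole heights recovered from the deposited fold and −log10 p, within 0.002. In H3K27ac NC the pileup had been scaled by 0.521, which was undone. The recovery was tested on simulated data. Shares have Wilson intervals and count ratios exact conditional binomial intervals, both at 95% and for counting error only. Each group has 1 library, so no p-value was computed. Alternatives were 5 kb flanks, the gene span alone, −log10 q of at least 5, regions at least 2 times the narrowest width, lists of equal length, assignment by summit and an overlap of at least 50%. Python 3.11.15, pandas 2.3.3, numpy 2.4.6 and scipy 1.17.1 were used.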

Additional observations from a re-analysis of the deposited data

How the results depend on the processing

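Each value is the knockdown as a percent of NC at the 9 loci unless said otherwise. H3K27ac regions changed direction with lists of equal length (107.0%) and with regions at least 2 times the narrowest width (123.2%), and gave 96.5% with −log10 q of at least 5. H3K27ac bases were 112.3% with 5 kb flanks, 141.8% with −log10 q of at least 5, 147.0% with wide regions and 144.7% with equal lengths (130.2%, 136.1% and 137.1% over the whole lists under the last 3), and the share of H3K27ac NC regions called again was 54.5%, 77.9% and 49.5% under these 3. H3T11ph bases were 125.7% with 5 kb flanks, 119.5% with −log10 q of at least 5, 311.1% with wide regions and 122.6% with equal lengths. Wide H3T11ph regions gave 333.3% (3 regions in NC and 10 in PKM2-KD), and 100.0% of those 3 lay on H3K27ac. NONO bases were 13.5% with 5 kb flanks and 22.5% with equal lengths (23.7% and 46.9% over the whole lists). At an overlap of at least 50%, 0 of 53 NONO regions were called again. No NONO region at the 9 genes was wide in either list, so that setting gave no value. The cause of these shifts was not tested. The remaining summed values moved by less than their intervals. Of the 54 counts of regions per gene and list, 18 were classed as moved with 5 kb flanks, 12 with −log10 q of at least 5 and 49 with wide regions. Smaller changes were not classed as moved, such as 56 to 45 H3K27ac regions at YAP1 in NC with 5 kb flanks. All went to lower values, since these settings can only remove regions. No paired analysis was possible because the groups are of 1 library. At most genes 1 to 8 NONO or H3T11ph regions were called per list, which limits any statement on a single gene.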
